A study of Mus musculus with 30 samples.

Results

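The 100 olfactory receptor genes with the most reads in mTEChi were followed through every mTEChi and B6 Aire-GFP+ library. mTEChi are mature medullary thymic epithelial cells (mTEC). Receptors were taken as all genes whose symbol is Olfr and a number, raw counts were summed over the 16 mTEChi libraries, and the 100 highest of 1116 such genes were kept. These 100 genes are 8.96% of the receptor genes and held 10084 of the 29512 receptor counts, or 34.2%, which is 0.0196% of all counts. Olfr1484 and Olfr237 were the last included, with 52 counts each, and Olfr1324 and Olfr481 stood just outside with 51 each. Summed counts chose the genes, so their high level is a description and not a result. Libraries of B6 Aire-GFP+ cells took no part in the choice.

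All mice were female C57BL/6J, 4 to 6 weeks old, and each library came from 1000 cells sorted from CD45-depleted thymus. The mTEChi groups, of 2 libraries each, were Aire-KO given PBS against WT given PBS, Aire-KO given spermidine against WT given spermidine, WT given topotecan against WT given DMSO, and Foxn1-cre, Nfe2l2 fl/fl against Foxn1-cre, Nfe2l2+/+. Treatments were intraperitoneal injections, with no dose or time stated by any source at hand. Both Nfe2l2 groups carry the Cre, which the Foxn1 promoter drives in thymic epithelium. Sorted Aire-GFP+ mTEC came from 2 Aire-KO and 3 WT libraries. The knockout allele and the way GFP is tied to Aire are not described in the sources used here. No label says that the libraries of a group came from separate animals, so p-values measure only the spread between these samples, which may be technical.

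Olfactory receptors are G protein-coupled receptors of the nose. An olfactory sensory neuron expresses a single receptor gene from a single allele, chosen out of a very large family that lies in clusters over most chromosomes. In the thymus, Aire, a transcriptional regulator of mature mTEC, switches on genes that otherwise belong to other tissues, so that developing T cells that react to them can be removed. Any given gene of this kind is expressed in a small share of mTEC, and pools of sorted cells therefore sample it unevenly.

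Sequences of 5 receptors that the Aire comparisons turn on are shown as 30-base stretches of the coding frame, read from GENCODE M21 transcripts (GRCm38). Capitals mark the 3 codons of the signature motif at the inner end of the third transmembrane helix, which couples these receptors to their G protein. Olfr1136 and Olfr1140 are neighbours on chromosome 2 and stood higher in Aire-KO cells. Olfr464, Olfr523 and Olfr1370 stood lower.
Olfr1136: atggcctttGATAGATACaaggccatcagc
Olfr1140: atggcctttGATCGGTACaaggccatcagc
Olfr464: atggcctatGACCGCTACatagccatctcc
Olfr523: atggcttatGACCGCTACctggccatctgc
Olfr1370: atgtctttgGATCGTTACattgccatatgc
Over the whole coding frame, Olfr1136 was 72.9% identical to Olfr1140. Olfr330 was 97.0% identical to Olfr331, so reads of that pair may be divided between them and its values are uncertain.

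The 250 bases before the annotated start are shown for Olfr1136 and Olfr330, which have the highest and the lowest fitted log2 fold change in the B6 comparison and whose RefSeq window starts close to the GENCODE transcript start. Alternating purines and pyrimidines are the kind of sequence that can adopt the left-handed Z form of DNA, the subject of the series, and capitals mark the longest such run in each window. Both are from RefSeq windows of GRCm38.p6, on the minus strand and written in the direction of transcription.
Olfr1136, chr2:87693948-87694197: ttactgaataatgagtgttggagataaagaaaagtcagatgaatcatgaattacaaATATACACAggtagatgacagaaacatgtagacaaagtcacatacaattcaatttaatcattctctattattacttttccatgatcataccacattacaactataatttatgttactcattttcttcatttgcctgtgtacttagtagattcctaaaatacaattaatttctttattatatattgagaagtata
Olfr330, chr11:58534826-58535075: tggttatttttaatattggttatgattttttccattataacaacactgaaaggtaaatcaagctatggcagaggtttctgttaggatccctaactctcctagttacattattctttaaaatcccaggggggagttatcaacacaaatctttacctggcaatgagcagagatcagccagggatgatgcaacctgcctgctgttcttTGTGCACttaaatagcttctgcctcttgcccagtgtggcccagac
The longest run had 9 bases in Olfr1136 and 7 in Olfr330, against a median of 7 over all 32851 windows of the same length. A run of 12 or more, which reads the same on either strand, stood in 8.12% of all windows and in 0 of the 9 windows of the 100 genes that could be used. Of the 90 genes with a window, 53 had one that starts within 10 bases of a start codon and is no promoter, so no wider statement can be made from these windows.

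Library totals were 2027205 to 5724045 counts in mTEChi and 6577151 to 12612775 in B6 Aire-GFP+ cells, so 52 counts over 16 libraries is a low level. Levels are given as CPM, counts relative to the library total scaled by the trimmed mean of M-values (TMM), unless another scale is named. Aire mRNA was 4324 ± 471 CPM in Aire-KO mTEChi and 1676 ± 86.3 CPM in WT mTEChi (SD, n = 4 each, PBS and spermidine together), and 1638 ± 188 CPM against 1650 ± 44.0 CPM in B6 (SD, n = 2 and 3). The part of Aire that is deleted is not stated, so its mRNA does not check the labels. Of 14 tested genes in a list of well-known Aire-dependent genes, 10 were lower and 1 was higher in Aire-KO mTEChi at adjusted p < 0.05 (edgeR), and in B6 13 of 15 were lower and 1 was higher. In Nfe2l2 fl/fl cells Nfe2l2 stood at 95.2 ± 13.2 CPM and in Nfe2l2+/+ cells at 90.2 ± 0.495 CPM (SD, n = 2 each), and the floxed part is not given. All 9 mTEC markers, a list that includes Aire, had counts in every group. Of these, 5 were higher and 1 lower in Aire-KO mTEChi, and 4 higher and 1 lower in B6. Aire was itself among the 5 in mTEChi and was not called in B6 (adjusted p = 0.938, edgeR). With Aire included, the 9 summed to 18096 to 19296 CPM in Aire-KO and 10522 to 10868 CPM in WT mTEChi given PBS or spermidine. Summed markers of tuft cells, an mTEC subset that also uses taste-receptor signalling, stood at 375 to 625 CPM in Aire-KO mTEChi and 611 to 1550 CPM in WT mTEChi given PBS or spermidine, with 7 of 8 lower and 0 higher. Of 6 fibroblast markers 2 were lower and 0 higher in Aire-KO mTEChi, with sums of 149 to 192 CPM in Aire-KO and 122 to 301 CPM in WT. In B6, 2 of 5 were higher and 2 lower, with sums of 252 to 328 CPM in Aire-KO and 70.9 to 112 CPM in WT. The part of these markers in the receptor values was not tested. In libraries made from pooled cells, fewer cells that express a gene and less RNA per cell cannot be told apart.

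A few receptors held much of the signal. The 10 highest genes carried 33.9% of the counts of the 100 and Olfr461 alone 9.72%. Olfr461 had 980 counts over the 16 libraries, followed by Olfr1136 with 423, Olfr109 with 419, Olfr523 with 353, Olfr99 with 296, Olfr157 with 275, Olfr920 with 205, Olfr94 with 160, Olfr107 with 155 and Olfr1370 with 148. The median over the 100 was 68.5 counts, against 17 over the other 1016 receptors, of which 8 had no count. Mean levels over the 16 libraries lay between 0.813 and 19.1 CPM, with a median of 1.35. Only 16 of the 100 had a count in all 16 libraries.

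Gene length differed between the 100 and the other receptors. Annotated exons of the 100 had a median of 4197 bases (97 with an annotated length), against 2871 bases in the other receptors. Per kilobase of exon the median was 17.2 counts in the 100 and 5.63 in the others. On this per-length scale the order changed: Olfr1136, whose single exon has 1067 bases at 2:87692881-87693947 (mm10), was highest with 396 counts per kilobase, above Olfr461 with 228 (6:40542171-40555050), Olfr99 with 166 and Olfr284 with 135. Of these 97, 3 have a single exon. Topotecan and DMSO libraries held 40.5% of the counts of the 100 but 24.3% of all counts, so they weigh most in the choice. Ranking by mean CPM instead kept 93 of the 100, and leaving out 1 library kept 89 to 99.

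**Figure D1:**
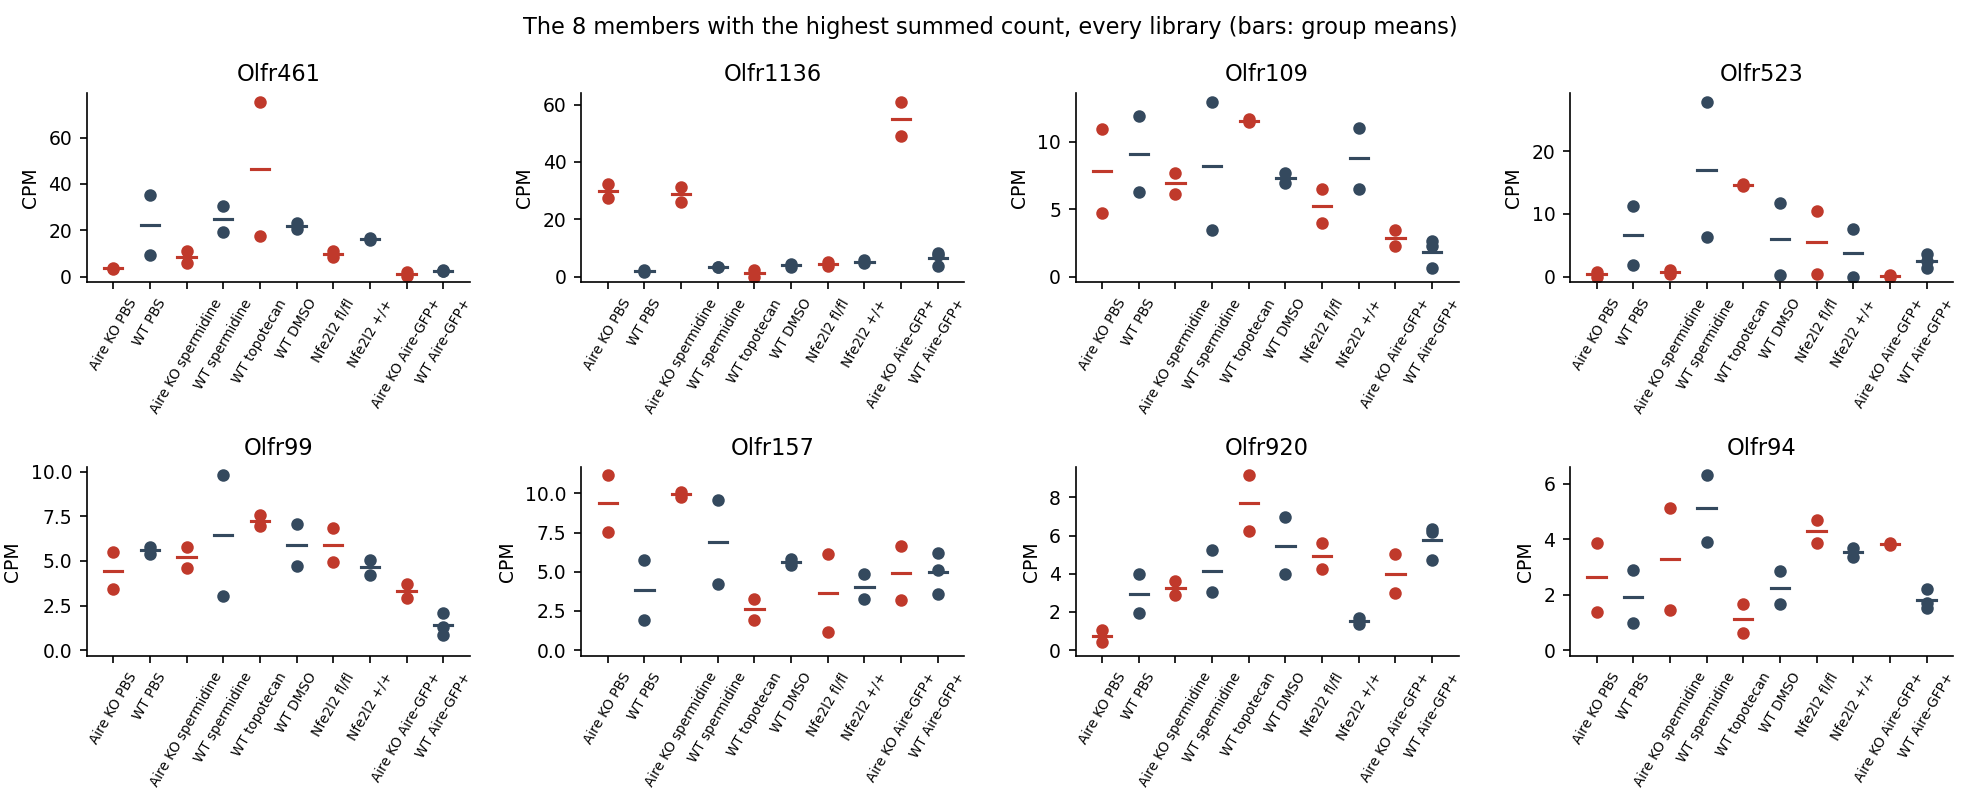
Level in CPM (linear axes) of the 8 receptors with the highest summed count, with a point per library and a bar at the group mean, in Aire-KO, topotecan or fl/fl groups (red) and the groups they are set against (blue). Olfr1136 stood at 26.0 to 32.3 CPM in the 4 Aire-KO mTEChi libraries and at 49.2 and 60.8 CPM in the B6 Aire-KO libraries, above all other libraries, and Olfr461 reached 75.2 CPM in a single topotecan library.

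Among the highest genes, patterns differed. Olfr461 had 3.44 and 3.77 CPM in Aire-KO given PBS, against 35.0 and 9.13 CPM in WT given PBS. With spermidine it had 11.1 and 5.64 CPM in Aire-KO and 30.5 and 19.1 CPM in WT. Topotecan libraries had 75.2 and 17.4 CPM of it, against 23.0 and 20.6 CPM in DMSO libraries, and fl/fl cells had 11 and 8.23 CPM, against 15.8 and 16.6 CPM in Nfe2l2+/+ cells. Its lowest values were thus those of the Aire-KO libraries with PBS, and its highest was 1 topotecan library whose partner lay below both DMSO libraries. Olfr109, Olfr99, Olfr94 and Olfr107 lie together on chromosome 17. Olfr99 had 3.44 and 5.48 CPM in Aire-KO given PBS and 5.41 and 5.77 CPM in WT given PBS, and lay between 3.04 and 9.82 CPM in all 16 mTEChi libraries. Olfr157 was at 7.53 to 11.2 CPM in the 4 Aire-KO libraries and at 1.92 to 9.55 CPM in the 4 WT libraries with the same injections, which overlap.

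Summed over the 100 genes, the level averaged lower in Aire-KO than in WT mTEChi and was highest with topotecan. The sums were 141 and 130 CPM in Aire-KO given PBS, against 223 and 149 CPM in WT given PBS. With spermidine they were 150 and 171 CPM in Aire-KO, against 213 and 181 CPM in WT. WT PBS library 2, at 149 CPM, lay below both spermidine Aire-KO libraries, so the genotypes overlapped, while the other 3 WT sums were above all 4 Aire-KO sums. Topotecan libraries had 409 and 343 CPM and DMSO libraries 260 and 232 CPM, so the groups did not overlap. Cells with Nfe2l2 fl/fl had 112 and 157 CPM and Nfe2l2+/+ cells 160 and 129 CPM, which overlap. In B6 Aire-GFP+ cells the sums were 209 and 206 CPM in Aire-KO and 189, 187 and 131 CPM in WT, but this order depends on the scaling: with library totals alone the group means were 176 CPM in Aire-KO and 189 CPM in WT. No p is given for these sums, since the genes were chosen on the same counts.

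**Figure D2:**
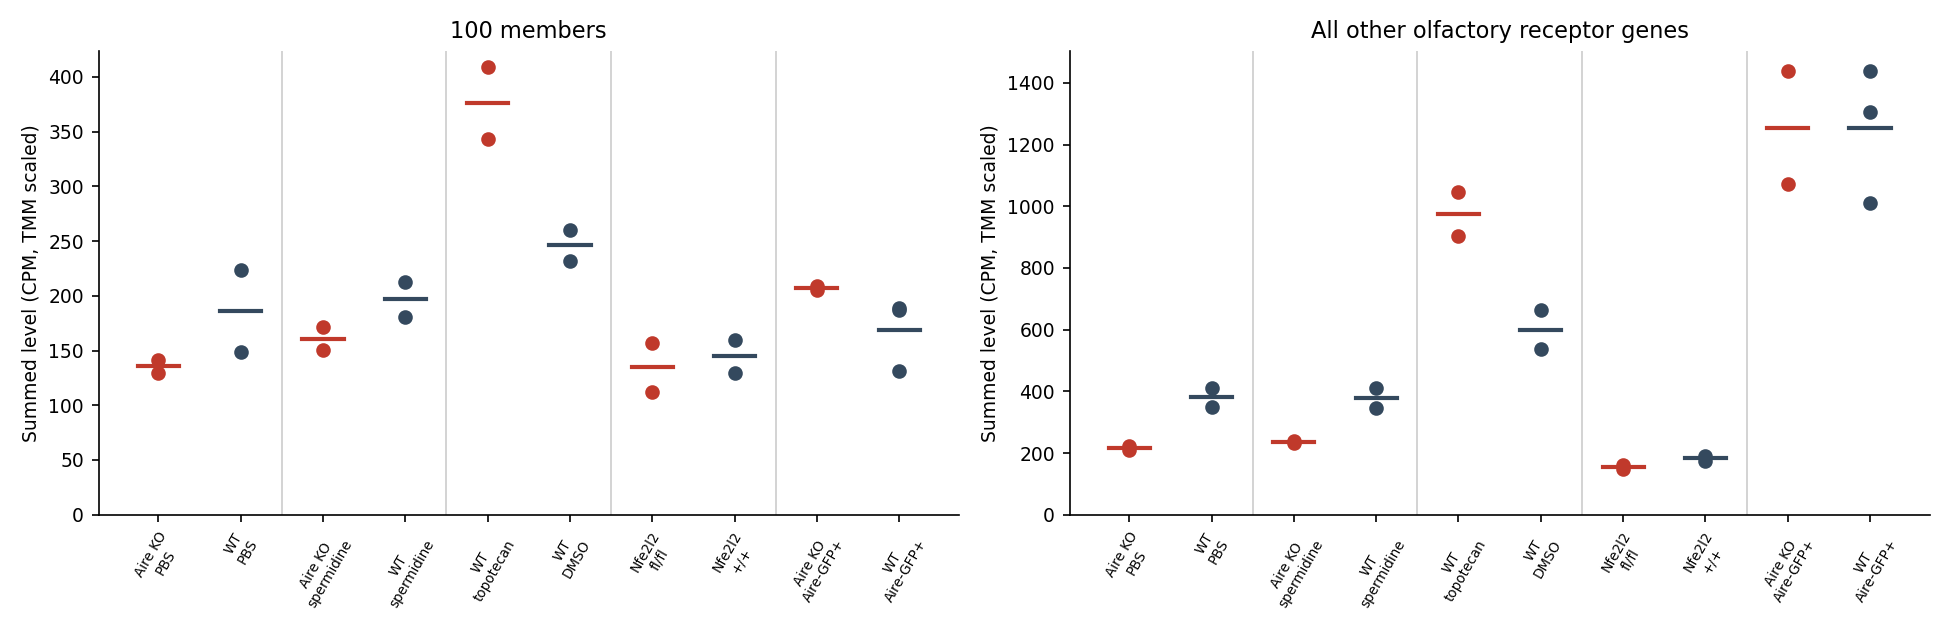
Summed TMM-scaled level in CPM (linear axes from 0) of the 100 receptors (left) and of all other Olfr genes (right), with a point per library and a bar at the group mean, for Aire-KO, topotecan or fl/fl groups (red) beside the groups they are set against (blue). The 2 topotecan libraries sit at 409 and 343 CPM on the left, above the DMSO libraries at 260 and 232 CPM, and on the right they are again above the DMSO libraries.

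The other receptors likewise averaged lower in Aire-KO than in WT mTEChi and highest with topotecan. Their summed level averaged 217 CPM in Aire-KO and 381 CPM in WT with PBS, 234 and 377 CPM with spermidine, and 976 CPM with topotecan against 600 CPM with DMSO. Unlike the sums of the 100, those of the other receptors did not overlap between Aire-KO (210 to 238 CPM) and WT (345 to 412 CPM) given PBS or spermidine, nor between fl/fl (163 and 148 CPM) and Nfe2l2+/+ cells (192 and 173 CPM). In B6, whose files were counted in another way, the other receptors summed to 1255 CPM in Aire-KO and 1253 CPM in WT on average. Vomeronasal receptors, which detect pheromones and were added as a family after these values were seen, were also lower in Aire-KO with PBS and higher with topotecan: genes with the symbol stem Vmn1r summed to 309 to 353 CPM with topotecan and 164 to 224 CPM with DMSO, and to 66.2 to 67.1 CPM in Aire-KO and 83.2 to 159 CPM in WT with PBS. The difference between these families and the 100 receptors was not tested. Summed fibroblast markers in the topotecan libraries were 139 and 1341 CPM, against 322 and 706 CPM with DMSO, and their part in these sums was not tested.

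Loss of Aire lowered 4 of the 100 receptors and raised 2 in mTEChi, taking PBS and spermidine together. Olfr461, Olfr464, Olfr523 and Olfr1370 fell, and Olfr1136 and Olfr284 rose, at adjusted p < 0.05 in edgeR's quasi-likelihood test with Benjamini-Hochberg adjustment over all genes. Olfr1136 was the 1 receptor that limma-voom also called, where 14.9% of all genes were called. Only 62 of the 100 passed the filter on low counts and were tested. Of all 18418 tested genes, 22.8% were called, 10.3% higher and 12.5% lower, so the share among the tested receptors was below that background. With only the compared libraries in the fit, 6 of the 16 receptors then tested were called, against 28.7% of all genes, which is not below it. Log2 fold changes of the 62 had a median of -0.79, against -0.05 over all tested genes. Of the 62, 45 had a negative and 17 a positive estimate. Counts summed over these libraries, most of which carry Aire, chose and kept the 62, so their median and the split of signs are a description and support no direction. Receptors that failed the filter had 226 counts in Aire-KO and 409 in WT with the same injections. With library totals alone the median of all genes was -0.23, the calls over all genes were 1181 higher and 3192 lower in place of 1891 and 2307, and the receptors still numbered 2 higher and 4 lower.

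Olfr1136 had the smallest adjusted p. It stood at 32.3 and 27.4 CPM in Aire-KO and 1.44 and 2.40 CPM in WT with PBS, and 26.0 and 31.3 CPM in Aire-KO and 3.51 and 3.47 CPM in WT with spermidine. Every Aire-KO library was above every WT library, and none of the other 8 mTEChi libraries had more than 5.68 CPM. The log2 fold change was 3.49 ± 0.48 (SE; adjusted p = 0.000145, edgeR), higher in 4 of 4 libraries, and it stayed between 3.32 and 3.66 when any 1 library was left out. These libraries also chose the gene: 270 of its 423 counts came from Aire-KO cells. In the treatments taken apart, which share the fit but not the libraries, the log2 fold change was 3.96 with PBS (adjusted p = 0.00253, edgeR) and 3.02 with spermidine (adjusted p = 0.00985, edgeR). Without Aire-KO spermidine library 2, or WT spermidine library 1 or 2, the spermidine value stayed at 2.88 to 3.03 on the log2 scale but its adjusted p was 0.0675 to 0.0808 (edgeR).

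Olfr284, on chromosome 15, had 2.15 and 5.82 CPM in Aire-KO and 1.44 and 1.44 CPM in WT with PBS, and 6.74 and 7.70 CPM in Aire-KO and 1.40 and 0.868 CPM in WT with spermidine. All 4 Aire-KO libraries were above the WT libraries. Its log2 fold change was 2.03 ± 0.64 (SE; adjusted p = 0.0339, edgeR). Olfr284 passed the filter on low counts only with its Aire-KO counts, so its separation by genotype is a description. Leaving out any 1 of 7 of the 8 libraries compared, all but Aire-KO PBS library 1, ended the call, with log2 fold changes over all 16 left-out fits of 1.58 to 2.30 and adjusted p up to 0.167.

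Among the receptors that fell, Olfr461 had a log2 fold change of -2.09 ± 0.50 (SE; adjusted p = 0.00753, edgeR), with 53 counts in Aire-KO and 247 in WT. Without WT PBS library 1, its highest of the 4 WT libraries, the value was -1.45 and adjusted p 0.0615 (edgeR). Olfr1370 had 1.29 and 1.03 CPM in Aire-KO and 9.38 and 5.29 CPM in WT with PBS, and 0 and 0.513 CPM in Aire-KO and 1.40 and 3.47 CPM in WT with spermidine. Its groups did not overlap, and its log2 fold change was -2.86 ± 0.78 (SE; adjusted p = 0.0172, edgeR). The call ended without Aire-KO PBS library 2, Aire-KO spermidine library 1, WT PBS library 1 or WT spermidine library 2, with adjusted p up to 0.0745 (edgeR) and log2 fold changes of -4.33 to -2.39 over all libraries left out.

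Olfr464 had 1 count in the 4 Aire-KO libraries, at 0.430 CPM in Aire-KO PBS library 1, and 28 counts in WT, at 3.97 and 6.25 CPM with PBS and 1.40 and 0 CPM with spermidine. The WT library at 0 thus overlaps the Aire-KO libraries. As raw rates the level was 26.0-fold lower in Aire-KO, with an exact 95% interval of 4.29 to 1061 that covers counting error only, and adjusted p was 0.0366 (edgeR). Olfr523 had 0, 0.685, 0.481 and 1.03 CPM in Aire-KO, against 11.2, 1.92, 6.31 and 27.8 CPM in WT. Each WT library exceeded each Aire-KO library, yet the WT libraries differed from each other by more than 10-fold, and the log2 fold change was -4.23 ± 1.41 (SE; adjusted p = 0.0438, edgeR). Each of the 2 calls ended without any 1 of 6 of the 8 libraries compared, with adjusted p up to 1.00 for Olfr464 and 0.220 for Olfr523 (edgeR). Those 6 were all but Aire-KO PBS library 1 and WT spermidine library 2 for Olfr464, and all but WT PBS library 2 and WT spermidine library 1 for Olfr523. Just past the threshold stood Olfr433, with a log2 fold change of 1.84 (adjusted p = 0.0725), and Olfr1140, with 2.91 (adjusted p = 0.0728, both edgeR). Over all mTEChi libraries Olfr433 had 77 counts, with 8, 12, 7 and 10 in the Aire-KO libraries. Olfr1140 had 59, with 9, 1, 11 and 6 in the Aire-KO libraries. Without its Aire-KO counts each would fall below 52, the lowest total kept, so these mTEChi estimates are a description.

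With the injections taken apart, calls were fewer. Olfr1136 higher and Olfr461 lower were the 2 receptors called with PBS, where 10.3% of all genes were called, 5.2% higher and 5.07% lower. Olfr1136 was the 1 receptor called with spermidine, where 9.11% of all genes were called, 4.77% higher and 4.34% lower. The value of Olfr461 with PBS was -2.62 on the log2 scale (adjusted p = 0.0340, edgeR), from 19 counts in Aire-KO and 116 in WT, and it was not called without either Aire-KO PBS library or WT PBS library 1, with values of -3.27 to -1.33 over all libraries left out. These estimates are parts of the average above and are no further evidence for it.

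**Figure D3:**
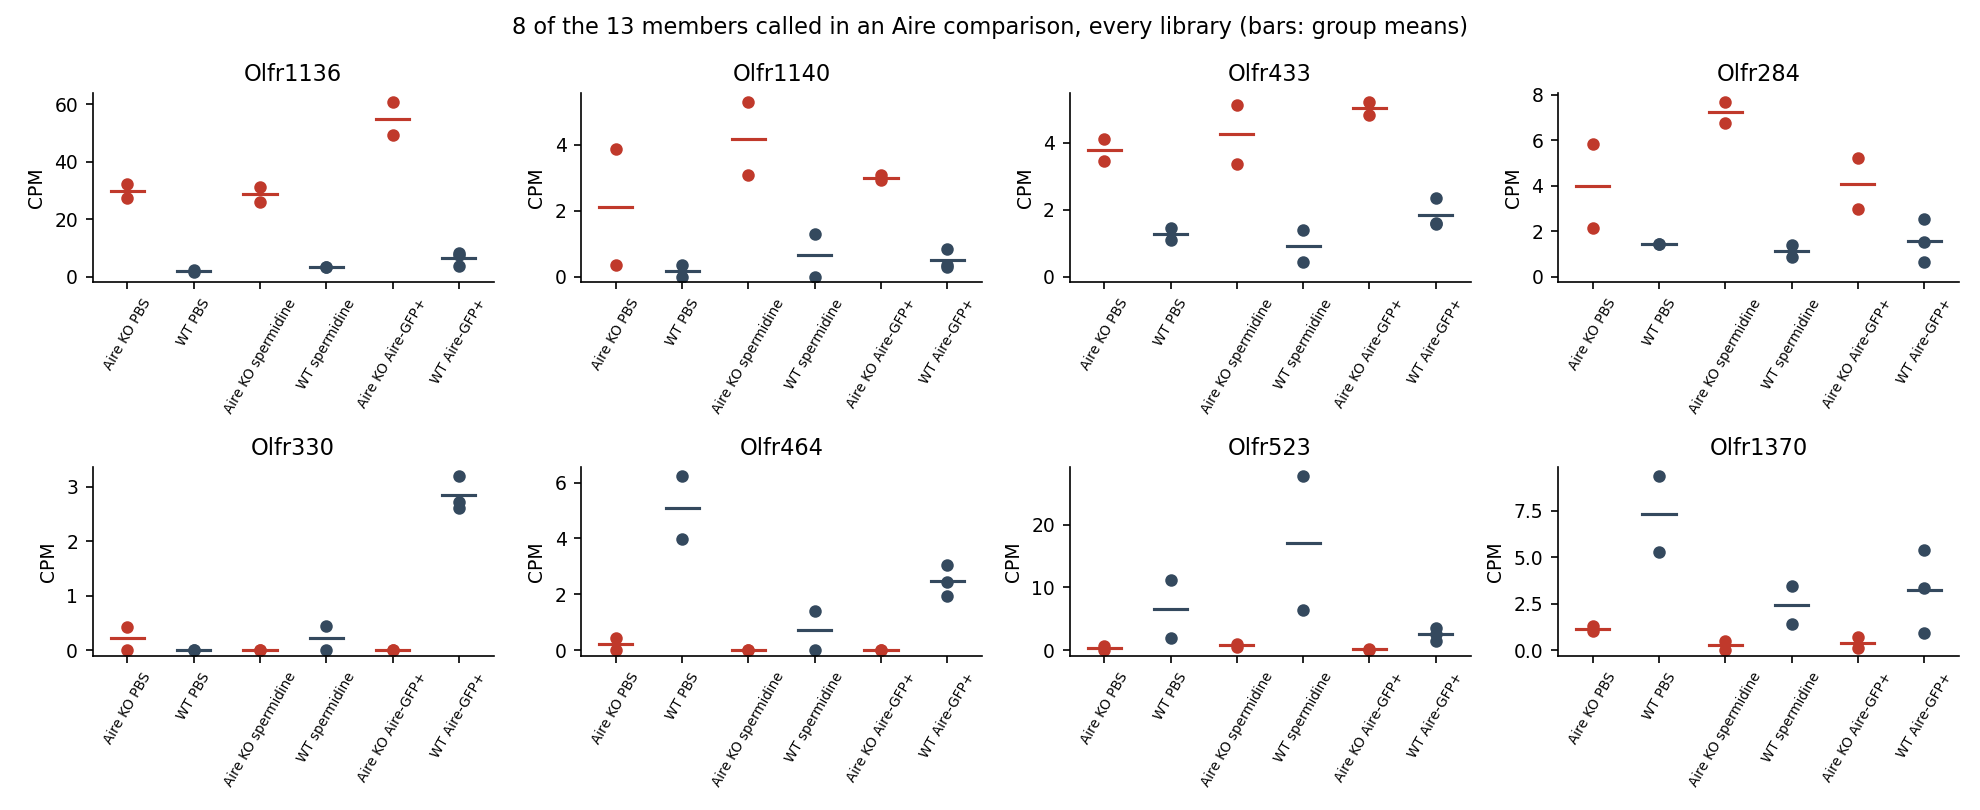
Level in CPM (linear axes) of 8 receptors called in an Aire comparison, with a point per library and a bar at the group mean, in Aire-KO (red) and WT (blue) mTEChi with PBS or spermidine and B6 Aire-GFP+ cells. The upper row holds receptors that stood higher in Aire-KO, led by Olfr1136, and the lower row receptors that stood lower, with Olfr330 and Olfr464 at 0 in both B6 Aire-KO libraries.

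B6 Aire-GFP+ cells, whose libraries had no part in the choice, had 7 receptors lower and 3 higher in Aire-KO. Olfr330, Olfr464, Olfr43, Olfr523, Olfr323, Olfr328 and Olfr324 fell and Olfr1136, Olfr1140 and Olfr433 rose. Of the 100, 97 had their symbol in these files and 45 passed the filter, which was set on these same libraries. Olfr330, Olfr464, Olfr43, Olfr523, Olfr323 and Olfr324 reached its level only in WT libraries, and Olfr1140 only in Aire-KO libraries. Olfr328 reached it in all WT libraries but in only 1 Aire-KO library. The filter thus kept these receptors through the group where they are high. Over all 17923 tested genes 41.3% were called, 19% higher and 22.3% lower, and 10 of 45 receptors is a smaller share. Log2 fold changes of the 45 had a median of -0.10, against -0.12 over all genes. Library totals alone moved the median of all genes to -0.51 and the calls over all genes to 1595 higher and 6239 lower, from 3410 and 4000, and then 2 receptors were higher and 9 lower.

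Olfr1136 again led those that rose. It had 49.2 and 60.8 CPM in Aire-KO and 7.59, 8.18 and 3.68 CPM in WT, or, on the per-length TPM scale, 45.1 and 54.9 TPM in Aire-KO and 9.65, 10.7 and 4.93 TPM in WT. The groups were far apart, and the log2 fold change was 3.09 ± 0.31 (SE; adjusted p = 0.000254, edgeR), from 2.78 to 3.303 with any 1 library left out. Olfr1140, its neighbour, had 3.09 and 2.93 CPM in Aire-KO and 0.276, 0.352 and 0.849 CPM in WT (log2 fold change 2.55, adjusted p = 0.0226, edgeR). Olfr433, on chromosome 1, had 5.23 and 4.82 CPM in Aire-KO and 2.35, 1.58 and 1.60 CPM in WT (log2 fold change 1.45, adjusted p = 0.0438, edgeR). Neither pair of groups overlapped. Olfr433 lost its call without any 1 of the 5 libraries (1.34 to 1.65, adjusted p up to 0.132), and Olfr1140 without either Aire-KO library or WT library 2 (2.31 to 3.17, adjusted p up to 0.107, edgeR).

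Olfr330 and Olfr464 had no count in either B6 Aire-KO library. Olfr330 stood at 2.62, 2.73 and 3.21 CPM in WT, from 84 counts, and was at least 18.2-fold lower in Aire-KO, taking 3 counts over the group as the floor (adjusted p = 0.00277, edgeR). Olfr464 stood at 3.04, 1.94 and 2.45 CPM in WT, from 70 counts, and was at least 15.2-fold lower (adjusted p = 0.00397, edgeR). Olfr43 had 2 counts in Aire-KO and 122 in WT. Its ratio of Aire-KO to WT was 0.0252, with a counting interval of 0.00302 to 0.0930 (adjusted p = 0.00416, edgeR). In its coding frame Olfr43 is 98.7% identical to Olfr403, so its reads may be shared with that gene. With any 1 library left out the estimates of these 3 stayed negative. The filter kept all 3 through the WT libraries, so this stability is a description and no support.

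Olfr523 had 0.238 and 0 CPM in Aire-KO and 3.59, 2.55 and 1.41 CPM in WT, from 2 and 70 counts (adjusted p = 0.0166, edgeR). The remaining 3 lie in 1 cluster on chromosome 11. Olfr323 had 0.119 and 0.567 CPM in Aire-KO and 2.48, 2.55 and 3.39 CPM in WT, Olfr328 had 1.66 and 0.945 CPM in Aire-KO and 3.45, 5.89 and 4.15 CPM in WT, and Olfr324 had 0.356 and 0.945 CPM in Aire-KO and 2.90, 2.99 and 3.02 CPM in WT. In all 4 receptors the Aire-KO libraries lay below the WT libraries. Log2 fold changes were -2.94 for Olfr323, -1.79 for Olfr328 and -2.14 for Olfr324 (adjusted p = 0.0210, 0.0353 and 0.0373, edgeR). Olfr324 was not called without Aire-KO library 1 or any 1 WT library (-3.002 to -1.63), Olfr328 without either Aire-KO library or WT library 2 or 3 (-2.23 to -1.42), Olfr323 without Aire-KO library 1 (-4.41 to -2.27) and Olfr523 without Aire-KO library 2 (-7.64 to -3.31), with adjusted p up to 0.148 (edgeR).

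**Figure D4:**
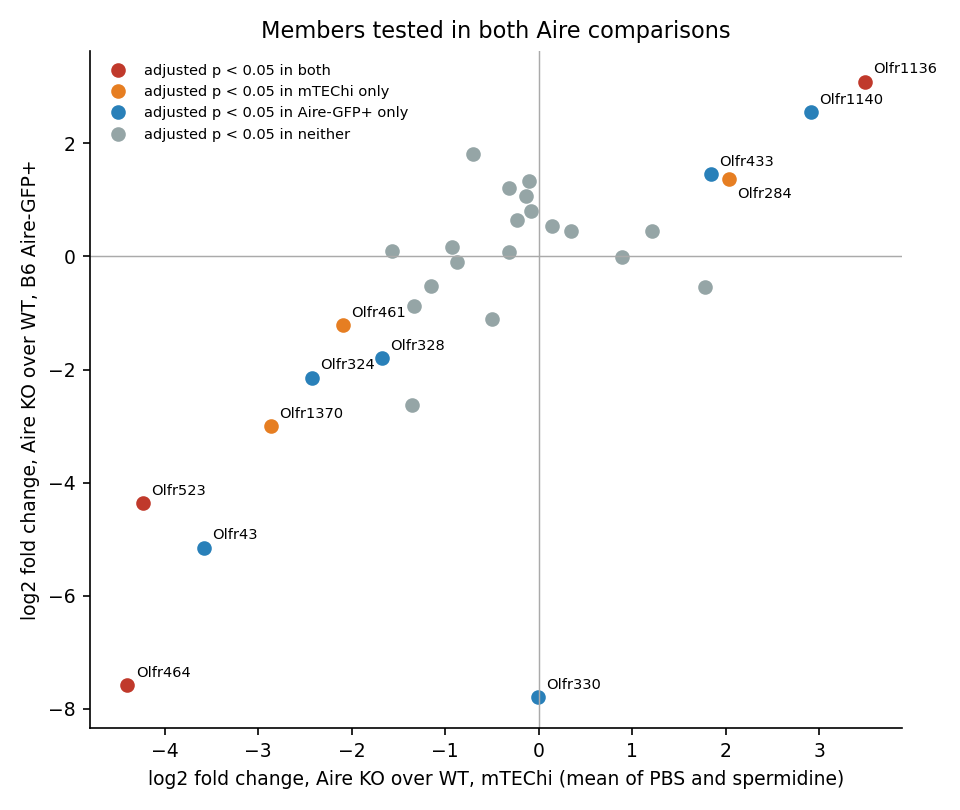
Log2 fold change of Aire-KO over WT in mTEChi (x axis) and in B6 Aire-GFP+ cells (y axis) for the 31 receptors tested in both, coloured by the comparison in which adjusted p was below 0.05. Olfr1136 lies at 3.49 and 3.09, Olfr464 and Olfr523 lie low on both axes, and Olfr330 has 1 count in each genotype in mTEChi, so its position on the x axis carries no information.

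The 2 Aire comparisons use separate libraries, and 31 of the 100 receptors were tested in both. Olfr1136, Olfr464 and Olfr523 were called in both and in the same direction, which is 50% of the 6 called in mTEChi and 30% of the 10 called in B6. Over all tested genes 22.8% were called in mTEChi and 41.3% in B6, and the share called in both was not counted. All 3 were noted after their values were seen. Olfr464 and Olfr523 passed the B6 filter only through WT libraries, where they are high, so their shared direction is a description. Olfr1370 fell in mTEChi and had a log2 fold change of -3.005 in B6 (adjusted p = 0.0535, edgeR), with 0.713 and 0.0945 CPM in Aire-KO and 5.38, 3.34 and 0.943 CPM in WT. Olfr461, the most counted receptor in mTEChi, was low in B6, with 0.356 and 1.79 CPM in Aire-KO and 2.48, 2.64 and 2.55 CPM in WT (adjusted p = 0.231, edgeR). A p above the threshold does not show that these were equal. In all, 13 receptors were called in at least 1 of these comparisons and 24 were tested in neither.

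Other genes near the called receptors were described as well. Epx, which encodes eosinophil peroxidase and lies 37732 bases from Olfr464, fell in Aire-KO, with log2 fold changes of -5.46 in mTEChi (adjusted p = 0.00464) and -4.11 in B6 (adjusted p = 6.4e-05, both edgeR). Zfp641, a zinc finger gene 43861 bases from Olfr284, rose, by 1.08 in mTEChi and 1.38 in B6 on the log2 scale (adjusted p = 0.00301 and 0.00275, edgeR). Ifi205, an interferon-inducible gene 8895 bases from Olfr433, rose by 0.59 in mTEChi (adjusted p = 0.0418) and 2.27 in B6 (adjusted p = 0.000206, edgeR). Clec5a, a receptor gene of myeloid cells 19844 bases from Olfr461, fell by 1.45 in mTEChi on the log2 scale (adjusted p = 0.0300) and had a log2 fold change of -2.15 in B6 (adjusted p = 0.181, edgeR). Aoah, a lipase gene 32717 bases from Olfr1370, fell by 2.39 in mTEChi (adjusted p = 0.00141) and had a positive estimate, 1.14, in B6 (adjusted p = 0.266, edgeR). The gene 2210407C18Rik, nearest to Olfr323, Olfr324, Olfr328 and Olfr330, had log2 fold changes of -1.33 in mTEChi and -1.17 in B6 (adjusted p = 0.00300 and 0.00489, edgeR). Sprn, nearest to Olfr523, was called in neither (adjusted p = 0.157 and 0.111, edgeR). Zfp616, nearest to Olfr43, was not called in mTEChi (adjusted p = 0.312, edgeR) or tested in B6. Pramel6, nearest to Olfr1136 and Olfr1140, was tested in neither. Whether receptors and neighbours move together more than other pairs of genes was not tested.

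The level of the 100 in B6 cells differed from the mTEChi order. On the per-length TPM scale their median in WT was 0.304 TPM, against 0.0745 TPM in other receptors, and 25 of them were among the 100 highest receptors. Olfr1136 ranked 10 in WT, at 8.44 ± 3.09 TPM (SD, n = 3). Highest was Olfr1033, which is not one of the 100, with 30.003 TPM in Aire-KO and 89.9 TPM in WT on average. The mTEChi and B6 files were counted in different ways, and this difference in order cannot be told apart from that of the sorting gates.

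Spermidine, a polyamine, changed none of the 100 receptors at adjusted p < 0.05 (edgeR). The count was 0 of 62 in WT, in Aire-KO, over both, and for the difference between the genotypes, where 0%, 0.00543%, 0% and 0% of all genes were called. DESeq2 and limma-voom also called 0, where each called at most 0.0326% of all genes. At an unadjusted p below 0.05 there were 4 receptors in WT, 1 in Aire-KO, 3 over both and 0 for the difference, where 3.85%, 4.13%, 4.46% and 3.36% of all genes were. Olfr305 had the smallest p over both genotypes, with 1.93 and 1.03 CPM in Aire-KO given spermidine and 1.75 and 1.3 CPM in WT given spermidine, against 0.430 and 0 CPM in Aire-KO given PBS and 0 and 0 CPM in WT given PBS (14 counts against 1; unadjusted p = 0.0084 and adjusted p = 0.991, edgeR). Over all mTEChi libraries Olfr305 had 60 counts. Without its spermidine counts it would fall below 52, the lowest total kept, so its separation is a description. Olfr920 had 2.89 to 5.26 CPM with spermidine and 0.430 to 3.97 CPM with PBS, and in Aire-KO its log2 fold change was 2.05 (unadjusted p = 0.0199 and adjusted p = 1.00, edgeR). Olfr43 had 8.42 and 4.78 CPM in WT given spermidine, from 35 counts, and 0.361 and 0 CPM in WT given PBS, from 1 count (unadjusted p = 0.00888 and adjusted p = 0.999, edgeR). The smallest p for the difference between genotypes was that of Olfr1097 (unadjusted p = 0.0577 and adjusted p = 1.00, edgeR).

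With topotecan, an inhibitor of DNA topoisomerase I, 0 of the 62 receptors were called against DMSO, while 0.652% of all genes were called, with 36 (0.195%) higher and 84 (0.456%) lower. DESeq2 and limma-voom likewise called 0 receptors, where they called 2.33% and 0.326% of all genes. At an unadjusted p below 0.05 (edgeR) were 10 of the 62 receptors and 13.9% of all genes. Log2 fold changes of the 62 had a median of 0.48, against 0.01 over all genes, and 37 were positive and 25 negative, but topotecan and DMSO libraries weigh most in the choice of the genes, so these values support no direction. Olfr1262, on chromosome 2, had 8.21 and 11.7 CPM with topotecan and 1.99 and 1.39 CPM with DMSO, from 62 and 12 counts (log2 fold change 2.53 ± 0.98, SE; unadjusted p = 0.0219 and adjusted p = 0.266, edgeR). It stood at 1.54 CPM or less in the other 12 mTEChi libraries. Olfr267 had 5.26 and 5.05 CPM with topotecan and 1.14 and 0.556 CPM with DMSO, from 32 and 6 counts (adjusted p = 0.292, edgeR), and Olfr223 had 6.24 and 1.58 CPM with topotecan and 0.284 and 0 CPM with DMSO, from 24 counts and 1 (adjusted p = 0.280, edgeR). In each of the 3 the topotecan libraries lay above the DMSO libraries. Over all mTEChi libraries Olfr1262 had 94 counts, Olfr267 had 55 and Olfr223 had 69. Without its topotecan counts each would fall below 52, the lowest total kept. Their topotecan counts thus took part in their choice, and their separation is a description. Between topotecan and DMSO libraries 47 of the chosen receptors did not overlap. Between spermidine and PBS libraries, where 0 receptors were called, 32 did not overlap in WT and 29 in Aire-KO. The share over all genes was not counted, so these counts support no difference. Aire itself stood at 723 ± 126 CPM with topotecan and 1328 ± 224 CPM with DMSO (SD, n = 2 each; log2 fold change -0.88, adjusted p = 0.0128, edgeR), and its part in these values was not tested.

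Between Nfe2l2 fl/fl and Nfe2l2+/+ cells 0 of the 62 receptors were called, with 0% of all genes called. Nfe2l2 encodes a transcription factor of the response to oxidative stress. DESeq2 and limma-voom also called 0 receptors, where they called 0.152% and 0% of all genes. At an unadjusted p below 0.05 (edgeR) were 8 of the 62, against 5.28% of all genes. Olfr160, known as M72 and used in many studies of how olfactory axons find their targets, had 3.99 and 2.63 CPM in fl/fl cells, from 32 counts, and 0.211 and 0.231 CPM in Nfe2l2+/+ cells, from 2 counts. Both fl/fl libraries were above both others, and the log2 fold change was 3.69 ± 1.14 (SE; unadjusted p = 0.00679 and adjusted p = 0.718, edgeR). Over all mTEChi libraries Olfr160 had 68 counts. Without its fl/fl counts it would fall below 52, the lowest total kept, so its separation is a description. Between fl/fl and Nfe2l2+/+ libraries 37 of the chosen receptors did not overlap, but the share over all genes was not counted, so this supports no difference. Olfr920 had 4.23 and 5.60 CPM in fl/fl and 1.68 and 1.38 CPM in Nfe2l2+/+ cells (unadjusted p = 0.0200 and adjusted p = 0.862, edgeR). Olfr1097 had 0 counts in fl/fl and 7 in Nfe2l2+/+ cells and was at least 2.56-fold lower by the floor of 3 counts over the group (adjusted p = 0.847, edgeR). Over all mTEChi libraries Olfr1097 had 53 counts. Without its Nfe2l2+/+ counts it too would fall below 52, so this bound is a description.

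The spread between pools of the same group varied widely over the 100. Chi-square per degree of freedom between the 2 libraries of a group, which averages 1 where only counting error acts and single genes vary around that, had a median of 2.26 over the 100 genes, quartiles of 1.51 and 3.34, and a range of 0.488 to 20.6. It was above 3 in 31 genes and above 5 in 13. Over the 9387 tested genes with totals in the same range its median was 3.09. The biological coefficient of variation, edgeR's measure of spread with counting error removed, had a median of 0.513 in the 62 tested receptors and 0.415 in those other genes. The measures give opposite orders, but they cover 100 and 62 receptors, and the other genes share only the range of totals. No difference in spread is therefore claimed, and the difference was not tested.

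Some receptors had counts in 1 pool and none in its partner, mostly at very few counts. Of 750 pairs of pools with a count in at least 1 of them, 186 had a count in only 1, in 128 of these it was 3 counts or fewer, and in 10 receptors a pool with 10 or more counts faced a pool with 0. In 24 receptors a single library held over 30% of the counts. Olfr523 had the widest spread, with a chi-square per degree of freedom of 20.6: it had 11.6 and 0.278 CPM in the DMSO pools, 0.470 and 10.5 CPM in the fl/fl pools and 7.58 and 0 CPM in the Nfe2l2+/+ pools, but 14.5 and 14.8 CPM with topotecan. Olfr461 followed with 19.97, Olfr329 with 12.1, Olfr328 with 10.2 and Olfr965 with 7.31. Olfr965 had 0.284 and 8.89 CPM in the DMSO pools and 0.986 and 4.73 CPM with topotecan. At the other end, Olfr1489 (0.488), Olfr267 (0.784) and Olfr111 (0.882) had the lowest values.

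**Figure D5:**
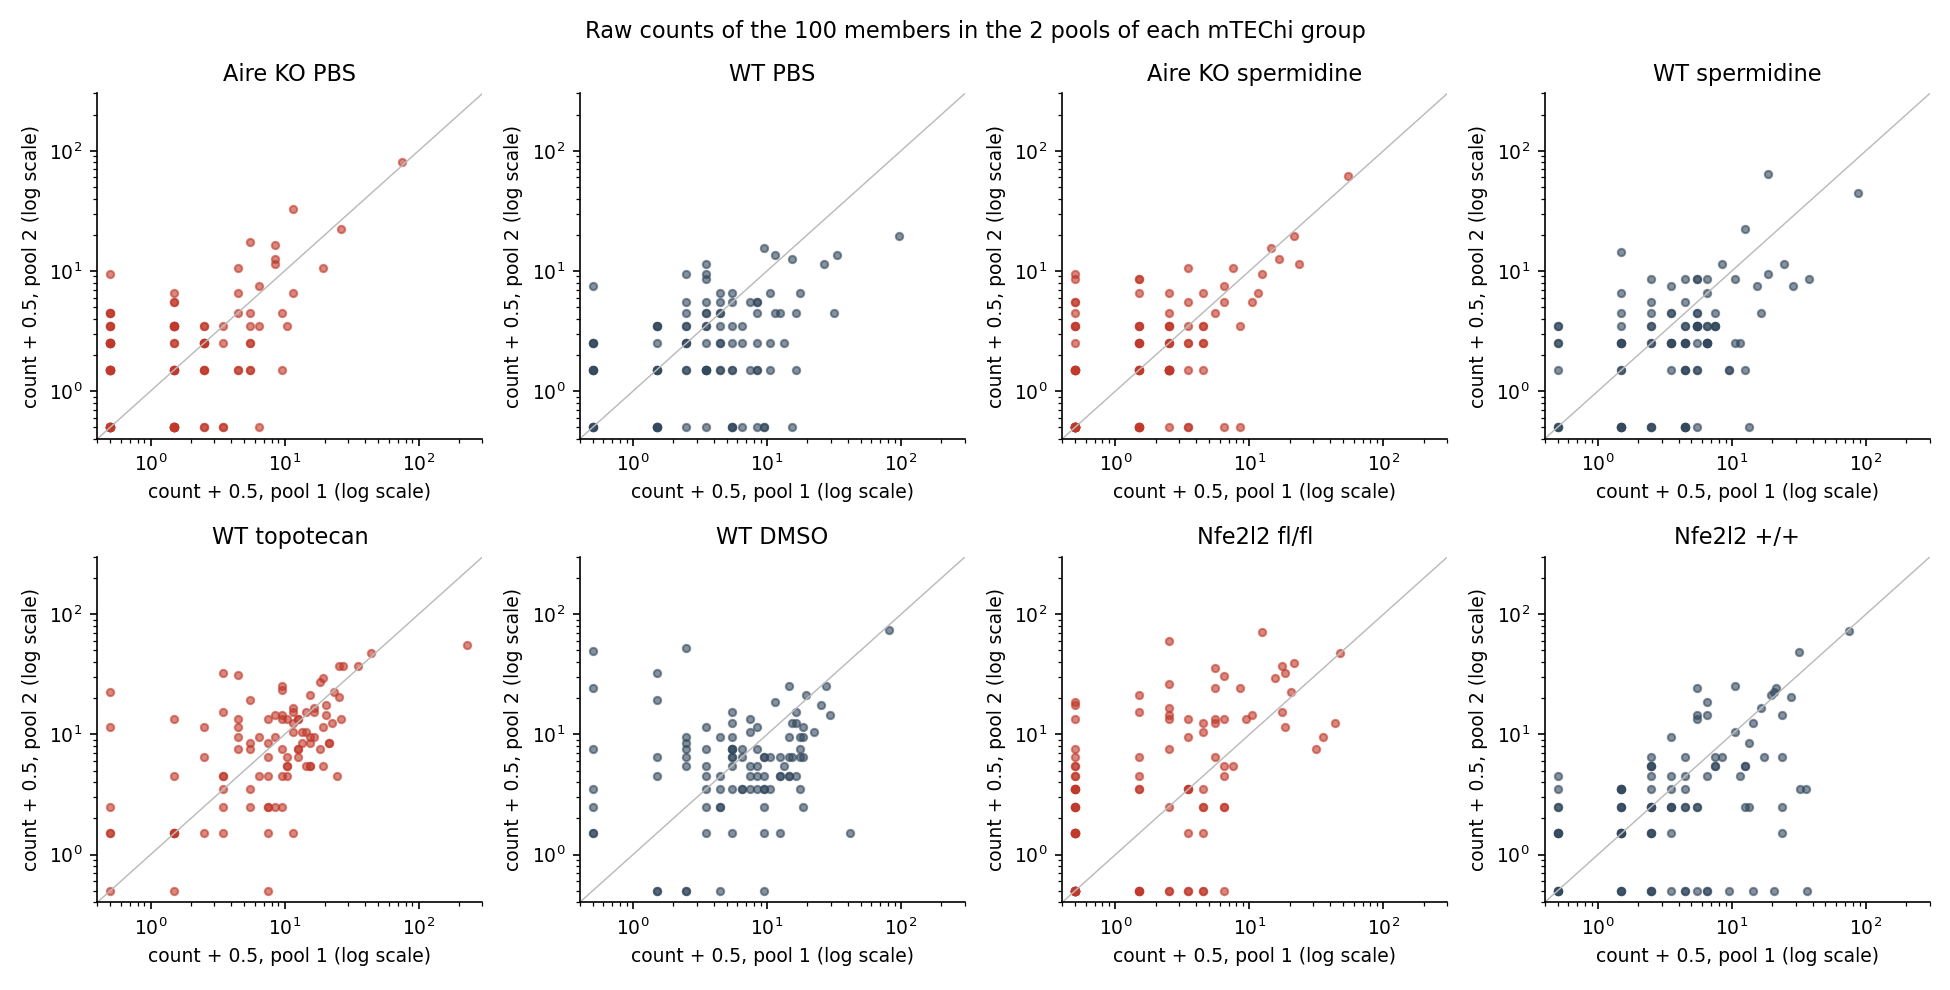
Raw count plus 0.5 of each of the 100 receptors in pool 1 (x axis) and pool 2 (y axis) of the 8 mTEChi groups, on log scales, with the line of equal counts. Points along the lower and left edges are receptors with a count in only 1 of the 2 pools, 186 of 750 pairs in all.

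Several receptors of 1 cluster were high in the same pool. At 11:58527186-58630501, 5 of the 7 receptors annotated there are among the 100: Olfr330, Olfr329, Olfr328, Olfr324 and Olfr323. In DMSO pool 2 Olfr328 had 49 counts, Olfr329 52 and Olfr330 15, against 0, 2 and 5 in DMSO pool 1. Olfr324 and Olfr323 did not follow, with 1 and 2 counts in DMSO pool 2, against 9 and 3 in DMSO pool 1. In fl/fl pool 2 all 5, in the order Olfr328, Olfr329, Olfr330, Olfr324 and Olfr323, had more, with 15, 26, 18, 21 and 13 counts, against 1, 2, 0, 1 and 2 in fl/fl pool 1. Summed over the 5, the level was 1.41 and 16.3 CPM in the fl/fl pools and 5.4 and 33.1 CPM in the DMSO pools. It was 2.15, 1.71, 0.963 and 0.513 CPM in Aire-KO and 11.5, 0.481, 3.16 and 0.434 CPM in WT given PBS or spermidine, which overlap. In B6 it was 2.14 and 2.46 CPM in Aire-KO and 11.5, 14.2 and 13.8 CPM in WT, which do not. Olfr328 and Olfr330 are 89.7% identical in their coding frames, so some reads of the cluster may be shared. Over all mTEChi libraries Olfr328 had 99 counts, and Olfr330 and Olfr323 had 57 each. Without DMSO pool 2, Olfr328 and Olfr330 would fall below 52, the lowest total kept. Without fl/fl pool 2, Olfr330 and Olfr323 would do so. These pools thus took part in the choice of the receptors, and the shared high pools are a description. The cluster was chosen after its values were seen and has no test of its own.

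Positions of the 100 were uneven. Chromosome 17 held 10 of them among 50 receptors, chromosome 11 held 12 of 83, chromosome 9 held 15 of 133, chromosome 7 held 16 of 239, chromosome 2 held 18 of 288, and chromosome 10 held 0 of 69. The 10 on chromosome 17, Olfr91, Olfr93, Olfr94, Olfr96, Olfr98, Olfr99, Olfr102, Olfr107, Olfr109 and Olfr111, lie among 17 receptors at 17:37090618-37532449, beside genes of the major histocompatibility complex such as H2-M2 and H2-M3. Ubd, which encodes a ubiquitin-like protein, lies 330 bases from Olfr94. Their summed level was 28.0, 28.8, 27.9 and 26.7 CPM in Aire-KO and 30.7, 23.6, 43.9 and 23.4 CPM in WT given PBS or spermidine, and in B6 28.9 and 25.8 CPM in Aire-KO and 21.5, 22.8 and 17.8 CPM in WT. The mTEChi groups overlapped. The B6 groups did not on the TMM scale, whose factors were 0.839 to 0.857 in Aire-KO and 1.10 to 1.13 in WT libraries, so their order depends on the scaling.

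Class I receptors, the type shared with fish, lie in 1 cluster on chromosome 7. The span from the first to the last of the 100 there (7:103739775-105090642), which is not set by the ends of the cluster, holds 48 receptors. Of these 48, 5 are among the 100: Olfr629, Olfr635, Olfr640, Olfr652 and Olfr679. Their summed level was 2.58, 1.71, 3.85 and 3.59 CPM in Aire-KO and 6.49, 12, 10.5 and 5.21 CPM in WT given PBS or spermidine, which do not overlap, while in B6 it was 37.2 and 23.9 CPM in Aire-KO and 34.5, 31.2 and 20.5 CPM in WT, nearly all from Olfr635. At 7:140173217-140421639 Olfr523, Olfr524, Olfr525, Olfr531 and Olfr532 summed to 2.58, 2.74, 0.963 and 2.05 CPM in Aire-KO and 16.6, 8.17, 8.77 and 30.4 CPM in WT, and in B6 to 1.78 and 1.98 CPM in Aire-KO and 5.38, 9.68 and 3.02 CPM in WT. The genotypes did not overlap in either. These regions were set after their values were seen and have no test of their own.

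Among the 100, 11 have another receptor with a coding frame at least 95% identical and are uncertain for that reason: Olfr43, Olfr679, Olfr372, Olfr1097, Olfr330, Olfr1116, Olfr1477, Olfr741, Olfr1501, Olfr166 and Olfr1261. At 90% or more there were 33. The libraries carry no strand, so reads of Olfr1489, Olfr77, Olfr943 and Olfr98 cannot be told from those of an overlapping gene on the opposite strand, nor those of Olfr56 from Ifi47, which shares 111 exon bases with it on the same strand. On the same strand 5 more share exon bases with another receptor gene or pseudogene: Olfr432 with Olfr431-ps1 (544 bases), Olfr1477 with Olfr1478-ps1 (391), Olfr1484 with Olfr1485-ps1 (370), Olfr640 with Olfr643 (278) and Olfr1013 with Olfr1014 (40).

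Genes that olfactory neurons use beside the receptors were present and changed unevenly. Of 10 neuron markers, 9 were tested in mTEChi, where Stoml3, a protein of olfactory cilia, and Cnga4, a subunit of the olfactory cyclic nucleotide-gated channel, fell in Aire-KO and 0 rose. Cnga4 averaged 0.214 ± 0.257 CPM in Aire-KO and 3.03 ± 1.25 CPM in WT (SD, n = 4 each; log2 fold change -3.49, adjusted p = 0.0224, edgeR). The median of the 9 was -1.09. In B6, 5 of 8 fell: Cnga2, Adcy3, Stoml3, Ano2 and Rtp1. Omp, the marker protein of mature olfactory neurons, rose, with 69.8 ± 11.4 CPM in Aire-KO and 48.5 ± 7.34 CPM in WT (SD, n = 2 and 3; log2 fold change 0.53, adjusted p = 0.0432, edgeR). In mTEChi Omp averaged 47.1 ± 9.54 CPM in Aire-KO and 57.4 ± 6.03 CPM in WT (adjusted p = 0.606, edgeR). Summed neuron markers were 105 to 119 CPM in Aire-KO and 133 to 148 CPM in WT given PBS or spermidine, 68.5 and 122 CPM with topotecan and 112 and 120 CPM with DMSO, and their part in the receptor values was not tested.

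Rtp1, which carries receptors to the cell surface, had 0 CPM in all 4 Aire-KO mTEChi libraries and 1.64 ± 2.49 CPM in WT mTEChi (SD, n = 4 each), where both PBS libraries were also at 0, and it was not called (adjusted p = 1.00, edgeR). It had 0.0594 ± 0.0840 CPM in Aire-KO and 4.91 ± 2.81 CPM in WT in B6 (SD, n = 2 and 3; log2 fold change -6.20, adjusted p = 0.00371, edgeR). In the wider list of genes for receptor signalling and trafficking, which includes some of these markers, 9 of 31 tested genes fell and 3 rose in mTEChi (median -0.45), and 10 of 31 fell and 7 rose in B6 (median -0.25). Over all genes 12.5% fell and 10.3% rose in mTEChi, and 22.3% fell and 19% rose in B6, so the shares that rose in this list lie near the background. Adcy2, an adenylate cyclase, Reep1 and Reep6, which help receptors reach the membrane, and Rtp4 were among those that fell in mTEChi. Pde1c, a phosphodiesterase of olfactory cilia, and Slc24a4, the calcium exchanger that ends the odour response, rose in both. Among regulators of receptor choice, 3 of 19 rose in mTEChi and 0 fell: Atf5, which follows the feedback signal of a chosen receptor, Dnmt3a and Tshz1. In B6, 6 of 21 rose and 4 fell, among them Kdm1a, a histone demethylase of receptor choice, which rose by 1.41 on the log2 scale (adjusted p = 0.00028, edgeR), Lbr, a nuclear envelope protein that fell by 1.41 (adjusted p = 0.00443, edgeR), and Emx2, which had no count in Aire-KO. Against the same background, 4 of 21 that fell in B6 is no larger a share than over all genes. The counts of genes that rose in B6 rest on TMM scaling, since library totals alone lower the median of all genes there.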

How the data were processed

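Of 30 samples in the labels, 21 are used; 3 F1 and 6 NOD samples are not analysed here. Per the labels, RNA was captured with oligo(dT), amplified by Smart-seq2 and made into Nextera XT libraries, without molecular identifiers or strand, so counting intervals cover counting error only. The authors deposited raw counts per gene (featureCounts) for mTEChi, and kallisto estimated counts and TPM per transcript for B6. The submitters' processing notes also name STAR, TopHat2 2.1.1, SAMtools 1.3.1 and mm10. From these files, 116816 of 118489 B6 transcripts were summed to gene symbols (GENCODE M21), and estimated counts were rounded. Counts were tested with edgeR 4.0.16 in R 4.3.3 (TMM, filterByExpr, quasi-likelihood), with a mean per group, all 16 mTEChi libraries in 1 fit and B6 apart, and Benjamini-Hochberg adjustment at 0.05. A group with no count is set at 3 counts, summed over its libraries, for a lower bound of the fold, and count ratios have exact 95% intervals. The script was tested on simulated data.

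Receptors are named by rule: the 10 highest, those called in a comparison, otherwise the 3 smallest p-values, those at the rank limit, the extremes of spread, exon overlaps and close copies. Close copies were set by identity of coding frames over their length, since no protein table was used here. Regions, neighbours and receptor families were chosen after their values were seen. The receptors and lists were chosen with earlier results of these data known. Alternatives were other scalings, no filter, DESeq2 1.42.0, limma-voom (limma 3.58.1), a replicate block, fits to the compared groups alone and leaving out each library.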

Additional observations from a re-analysis of the deposited data

How the results depend on the processing

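Of the alternative values of the named receptors, 723 kept direction and side of the threshold, 61 lost and 5 gained it, and 1 reversed: Olfr1205 with spermidine in Aire-KO had a log2 fold change of -2.57 without Aire-KO spermidine library 2 and of 5.74 without Aire-KO PBS library 2, the extremes over the libraries left out, in place of 3.19. Receptors called for Aire loss over both injections numbered 1 with limma-voom and 1 to 7 of 86 to 96 tested with a library left out, where 13.7% to 22.5% of all genes were called, in place of 6 of 62. With PBS they numbered 1 with limma-voom, 4 of 100 without a filter (5.79% of all genes), 4 of 9 with the compared groups alone (14.2%) and 1 to 2 with a library left out (3.08% to 11.2%), in place of 2. With spermidine they numbered 4 of 100 without a filter (5.37%), 5 of 9 with the compared groups alone (17.9%) and 0 to 1 with a library left out (2.69% to 9.85%), in place of 1. For topotecan 2 of 100 were called without a filter (2.14%) and 0 to 1 with a library left out (0.245% to 0.847%), in place of 0. In B6 5 to 9 of 40 to 58 tested were called with a library left out (24.9% to 40.4%) and 15 of 94 without a filter (30%), in place of 10 of 45. For Aire loss limma-voom called 14.9% of all genes over both injections and 5.82% with PBS. The cause was not tested. With library totals alone the summed level was 124 CPM in Aire-KO with PBS and 176 CPM in B6 Aire-KO. Without the 10 highest receptors it was 69.9 CPM in Aire-KO and 122 CPM in WT with PBS, 91.7 and 115 CPM with spermidine, 277 CPM with topotecan and 183 CPM with DMSO, 87.0 CPM in fl/fl and 91.8 CPM in Nfe2l2+/+ cells, and 124 CPM in Aire-KO and 133 CPM in WT in B6.

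The labels do not say what a shared replicate number marks. Over 28 pairs of mTEChi groups, deviations of libraries with the same number correlated at -0.06 to 0.06. Such values cannot tell whether a number marks a shared animal or day. With the replicate block 5 of 62 receptors were called in mTEChi in place of 6, Olfr523 being lost, where 22% of all genes were called. In B6 7 of 45 were called in place of 10, where 37.4% of all genes were called. The low counts limit all of this, since 38 of the 100 receptors did not pass the filter in mTEChi, and a count of 0 in a library does not show absence.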
